A study of Mus musculus with 8 samples.

Results

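The comparison described here is between mouse embryonic stem cells of the lines titled QT7 and QT7L1, with 2 libraries of each, 4 of the 8 libraries in the series. Members were chosen by sample title. All cells derive from E14TG2a, a male mouse embryonic stem cell line, and were grown for 48 h in medium with 15% serum and LIF, the cytokine that sustains self-renewal. The reference groups are WT, unedited E14TG2a, and QKO, a quadruple knockout whose genotype is given as TCF7(-/-), TCF7L1(-/-), TCF7L2(-/-) and LEF1(-/-). Both lines compared are described as quadruple knockouts into which 1 copy of a single factor was put back, TCF7 in QT7 and TCF7L1 in QT7L1, so that 3 of the 4 full-length factors are missing in each line. The genotype tags of these samples name the opposite factor, with TCF7L1(+/-) on the samples titled QT7 and TCF7(+/-) on those titled QT7L1. The names below follow the titles, and every difference is given as QT7 over QT7L1. The 2 libraries of each line are labelled as clones A and B (replicates 1 and 2 here), so the spread within a line is the spread between 2 clones.

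TCF7, TCF7L1, TCF7L2 and LEF1 are the DNA-binding proteins through which the Wnt pathway reaches its target genes. When Wnt ligands bind Frizzled receptors, beta-catenin escapes degradation and joins these factors on DNA, and without beta-catenin they recruit Groucho/TLE corepressors instead. In mouse embryonic stem cells TCF7L1 is the most abundant member and is known mainly as a repressor of pluripotency genes, whereas TCF7 is known mainly as an activator together with beta-catenin. The comparison asks how the transcriptome differs when a single copy of one or of the other is all that remains.

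RNA was measured as reads per gene from stranded, poly(A)-selected libraries made from 250 ng of total RNA. The QT7 libraries held 38153683 and 42314681 gene counts and the QT7L1 libraries 33202945 and 32602246, within the range of 31573536 to 43362627 over all 8. Levels are in CPM (counts per 1000000 after TMM scaling). The clones of QT7 were less alike than those of the other lines, with Pearson's r of log2 CPM of 0.9815 across genes against 0.9901 to 0.9912 in WT, QKO and QT7L1. On the second principal component, which held 22.7% of the variance, the QT7 clones had scores of -59.58 (replicate 1) and -18.89 (replicate 2), and the QT7L1 clones of -1.07 and 0.52. Mitochondrial genes took 1.57% of counts in QT7 replicate 1 and 0.471% in replicate 2, against 1.15% and 0.484% in QT7L1. Values without QT7 replicate 1 are therefore given beside many of the results below. The 10 embryonic stem cell markers were present in every library, with summed levels of 6390 and 7240 CPM in QT7 and 7200 and 7410 CPM in QT7L1.

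Few genes were called between the lines by edgeR, whose fit takes the spread between clones from all 4 groups. With edgeR's quasi-likelihood test and Benjamini-Hochberg adjustment over 16515 genes, 1 gene was called at an adjusted p under 0.05, 0.00606% of those tested. It was Gm47283, which was lower in QT7. The median log2 fold change over all tested genes was 0.001, and the 95% interval lay within 2-fold either way for 11143 genes, 67.5%. For the remaining genes the interval reached or passed 2-fold on at least 1 side. Differences of at least 2-fold were unequally split, with 873 genes higher and 167 lower in QT7, and at an unadjusted p under 0.05 there were 1193 higher genes (7.22%) and 637 lower genes (3.86%). Both QT7 libraries lay above both QT7L1 libraries for 3411 genes (20.7%) and below both for 3325 (20.1%).

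The number of calls depended on the test. DESeq2 on the same counts called 207 genes as higher in QT7, 1.3% of the 15874 genes to which it gave an adjusted p, and 29 as lower, 0.183%. The authors' deposited table for this comparison holds 214 genes with an adjusted p under 0.05, 190 higher and 24 lower in QT7, and 202 of them were among the DESeq2 calls here. In all 236 genes called by DESeq2 the libraries of the lines did not overlap, but in 77 of them QT7 replicate 1 was over 2 times as high as QT7 replicate 2. The edgeR count was 3 without QT7 replicate 1, 1564 without QT7 replicate 2, 0 without any 1 of the QKO or QT7L1 libraries, and 17 and 14 without WT replicate 1 or 2. In such fits the remaining clone is assumed to vary like the other groups. Genes below that passed only DESeq2 are named as such and described by their values.

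**Figure D1:**
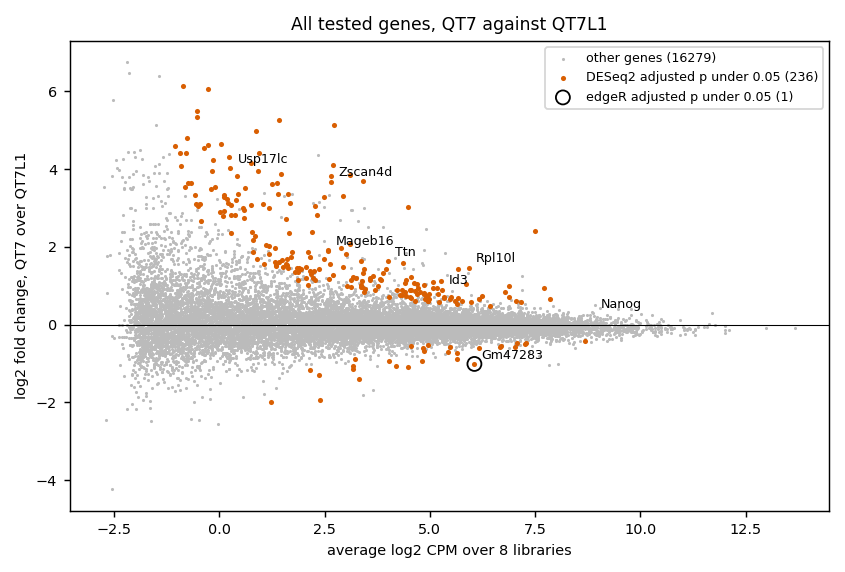
Log2 fold change of QT7 over QT7L1 (vertical axis) against average log2 CPM over the 8 libraries (horizontal axis) for 16515 genes. Of the 236 genes called by DESeq2 (orange), 207 lie above the line at 0, and the 1 gene called by edgeR, Gm47283 (circle), lies below it.

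The TCF/LEF genes themselves were examined first. Their gene counts include reads from edited alleles, since all exons of a gene are summed, so they do not show whether protein was made. Tcf7 (chr11:52252371-52283014, GRCm38) had 16.6 and 20.9 CPM in QT7 and 10.1 and 12.7 CPM in QT7L1, beside 59.6 and 61.9 CPM in WT and 7.97 and 19.7 CPM in QKO. Both QT7 clones lay above both QT7L1 clones, but QKO spanned most of that range. Tcf7 had a log2 fold change of 0.72 ± 0.37 (SE, n = 2 per line; 95% interval -0.13 to 1.58) and an edgeR adjusted p of 0.509. Here and below, SE and interval come from the fit over all 8 libraries, so the spread between WT and QKO clones also enters them. With the 4 libraries of QT7 and QT7L1 alone, the edgeR adjusted p of Tcf7 was 0.406.

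Tcf7l1 (chr6:72626378-72789254) had 27.4 and 22.4 CPM in QT7 and 36.9 and 27.5 CPM in QT7L1, beside 38.3 and 39.1 CPM in QKO and 73.6 and 68.8 CPM in WT. The lines were separated by 0.1 CPM at their nearest clones, and QKO lay above both. Tcf7l1 had a log2 fold change of -0.37 ± 0.15 (95% interval -0.71 to -0.03; edgeR adjusted p = 0.42). The direction of both genes is that of the titles and not of the genotype tags, and neither difference passed the test. For Tcf7l1 the log2 fold change was -0.15 without QT7L1 replicate 1, -0.57 without QT7L1 replicate 2 and -0.24 without QT7 replicate 2.

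Tcf7l2 had 5.84 and 5.27 CPM in QT7 and 5.51 and 4.72 CPM in QT7L1, overlapping values with a log2 fold change of 0.12 ± 0.21. Lef1 (chr3:131110471-131224356) was low in all edited lines, with 1.33 and 0.92 CPM in QT7, 0.9 and 0.804 CPM in QKO and 0.212 and 0.213 CPM in QT7L1, against 6.57 and 2.4 CPM in WT. The QT7L1 values rest on 7 counts in each library and stand apart from the 52 and 40 counts of QT7. The log2 fold change of 2.38 ± 0.57 (95% interval 1.12 to 3.64) was not called by edgeR (adjusted p = 0.19) and was called by DESeq2 (adjusted p = 0.0243).

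Gm47283 (chrY:90784738-90816464, plus strand) is a predicted gene that the authors' deposited table names Erdr1. It was named here because it was the single edgeR call. Its level was 47.0 and 49.3 CPM in QT7, 104 and 89.5 CPM in QT7L1, 54.6 and 49.3 CPM in QKO and 70.1 and 67.8 CPM in WT. QT7 lay with QKO, and QT7L1 lay above all other libraries. Gm47283 fell by 1.01 ± 0.11 on the log2 scale in QT7 relative to QT7L1 (edgeR adjusted p = 0.0467). It was not called in 8 of 18 alternative settings, among them those without either QKO clone, without QT7 replicate 1 and without either QT7L1 clone, with an adjusted p of up to 0.408.

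A near-identical gene, Gm21887 (chrX:170009659-170019281), shares 508 aligned bases with Gm47283 at 100% identity out of 531 in its longest transcript. Reads from such copies can be split between them or dropped, so the 2 genes are not independent and the level of each is uncertain. Gm21887 had 1.66 and 2.99 CPM in QT7 and 10.8 and 6.97 CPM in QT7L1. It showed the same order, with a log2 fold change of -1.93 ± 0.32 that edgeR did not call (adjusted p = 0.111).

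The next genes by p had adjusted p from 0.0501 upward, and the 12 below are those with the smallest p among genes of at least 2 average log2 CPM whose libraries did not overlap and whose symbol is not a predicted, RIKEN or clone name. None of the 12 was called by edgeR, and each was called by DESeq2. Since non-overlap was part of the rule that chose them, the separation of their libraries is a description. In 11 of the 12 the QT7 level was the higher one.

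Several of these genes are known for expression in the testis or in germ cells. Rpl10l (chr12:66283379-66284401), an intronless autosomal copy of the X-linked ribosomal protein gene Rpl10 that serves male meiosis, had 111 and 76.2 CPM in QT7 and 35.6 and 32.3 CPM in QT7L1. QKO had 91.4 and 83.7 CPM and WT 24.7 and 28.4 CPM, so QT7 lay with QKO and QT7L1 just above WT. The log2 fold change was 1.46 ± 0.17 (95% interval 1.09 to 1.84; edgeR adjusted p = 0.0501). The parent gene Rpl10 had 1230 and 1230 CPM in QT7 and 1240 and 1260 CPM in QT7L1, a log2 fold change of -0.02 ± 0.09. The longest transcripts of Rpl10 and Rpl10l align over 600 bases at 84.8% identity.

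D1Pas1 (chr1:186967416-186970627), an autosomal testis copy of the RNA helicase gene Ddx3x, had 90.9 and 69.8 CPM in QT7, 34.8 and 43.1 CPM in QT7L1, 75.4 and 81.3 CPM in QKO and 32.9 and 32.6 CPM in WT. The order of the groups was again QT7 with QKO above QT7L1 and WT. Its log2 fold change was 1.04 ± 0.15 (edgeR adjusted p = 0.0755), while Ddx3x had 580 and 517 CPM in QT7 and 447 and 520 CPM in QT7L1, with overlapping libraries.

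Mageb16 (chrX:79623231-79671435), a MAGE family gene of germ cells and early embryos, had 11.2 and 7.45 CPM in QT7 and 2.42 and 2.56 CPM in QT7L1. WT and QKO lay between, at 4.73 and 6.64 CPM and 6.02 and 6.46 CPM. Its log2 fold change of 1.9 ± 0.27 had an edgeR adjusted p of 0.0755. Dnah8 (chr17:30624354-30877365), an axonemal dynein heavy chain of sperm tails, had 189 and 170 CPM in QT7, 107 and 113 CPM in QT7L1, 110 and 127 CPM in QKO and 62.6 and 56.5 CPM in WT. QT7 lay above all other groups for Dnah8, with a log2 fold change of 0.71 ± 0.11 over QT7L1 (edgeR adjusted p = 0.111).

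The other leading genes encode structural, surface and signalling proteins. Ttn (chr2:76703980-76982547), which encodes the giant sarcomere protein titin, had 26 and 19.1 CPM in QT7, 6.72 and 7.8 CPM in QT7L1, 17.3 and 23.0 CPM in QKO and 14.9 and 13.1 CPM in WT. QT7L1 was the lowest group, and the log2 fold change was 1.63 ± 0.21 (edgeR adjusted p = 0.0501). Spn, the cell surface sialoglycoprotein CD43, had 30.9 and 26.5 CPM in QT7 and 16.2 and 16.9 CPM in QT7L1, with WT and QKO between 26.8 and 32.0 CPM. For Ttn and Spn, QT7L1 was thus the group that stood apart.

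Ptprv, a receptor-type tyrosine phosphatase, had 49.2 and 30.4 CPM in QT7 and 17.2 and 16.8 CPM in QT7L1. Plekhg1 had 45.5 and 23.7 CPM in QT7 and 12.7 and 10.4 CPM in QT7L1. In both, QT7 replicate 1 was the highest library of all, and the log2 fold change of Plekhg1 was 1.58 ± 0.27 over both clones and 1.04 without replicate 1.

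Apod, the lipocalin apolipoprotein D, had 15.6 and 12.7 CPM in QT7 and 5.57 and 6.58 CPM in QT7L1. Col2a1, the chain of type II collagen, had 6.05 and 5.66 CPM in QT7 and 2.06 and 2.65 CPM in QT7L1. Rdm1, a RAD52-related DNA repair gene and the single leading gene with the higher level in QT7L1, had 35.6 and 43.4 CPM in QT7 and 68.1 and 61.2 CPM in QT7L1. WT (36.2 and 40.4 CPM) and QKO (32.4 and 29.9 CPM) had Rdm1 levels near those of QT7, and the log2 fold change was -0.71 ± 0.13 (edgeR adjusted p = 0.116).

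Id3 (chr4:136143497-136145755), an inhibitor of basic helix-loop-helix factors and a target of BMP signalling, had 37.3 and 42.7 CPM in QT7, 20.9 and 21.8 CPM in QT7L1, 75.0 and 78.8 CPM in QKO and 20.3 and 14.4 CPM in WT. QT7 lay between QKO and QT7L1, and QT7L1 lay near WT. Id3 had a log2 fold change of 0.9 ± 0.16 (95% interval 0.55 to 1.26; edgeR adjusted p = 0.111). Id1, with 95.8 and 121 CPM in QT7 and 118 and 138 CPM in QT7L1, and Id2, with 10.3 and 12.9 CPM against 15.3 and 15.9 CPM, had the opposite sign, at -0.24 ± 0.18 and -0.42 ± 0.27 (-0.07 and -0.27 without QT7 replicate 1).

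**Figure D2:**
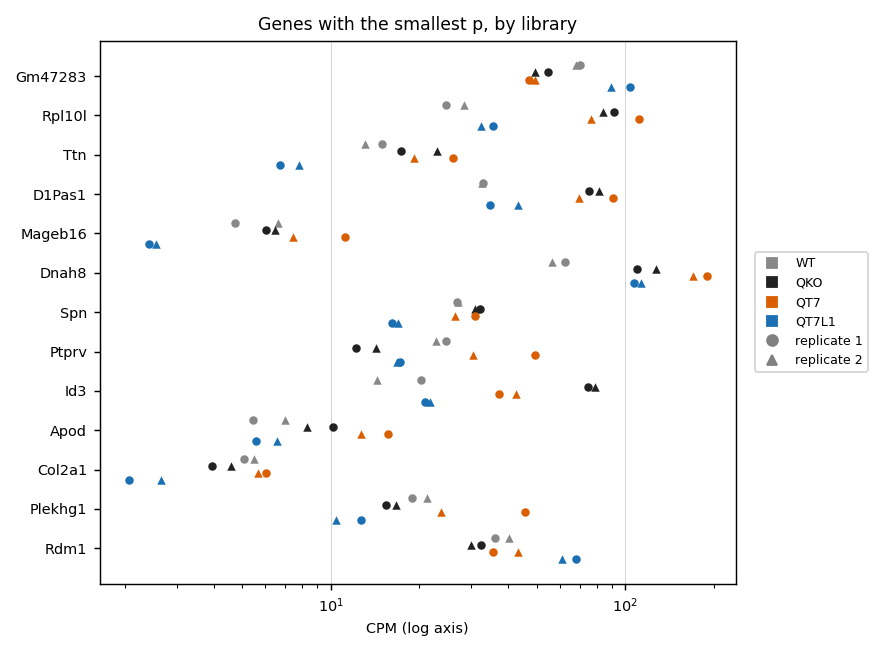
CPM on a log axis of Gm47283 and the 12 leading genes in each of the 8 libraries, coloured by group, with circles for replicate 1 and triangles for replicate 2. QT7 (orange) lies above QT7L1 (blue) in 11 of the 12 leading genes, and below it in Rdm1 and Gm47283.

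Genes of the 2-cell-like state had the largest median log2 fold change among the 34 gene lists. Cultures of embryonic stem cells hold a small fraction of cells that pass through a state resembling the 2-cell embryo, in which the Dux factor switches on Zscan4 genes, which act in telomere maintenance, together with the Usp17l deubiquitinase, Tcstv and Tdpoz families. Of 23 listed genes, 19 were matched to the files, 15 passed the filter on low counts and 4 did not. Over the 19 matched genes the summed level was 37.4 and 51.5 CPM in QT7, 4.66 and 3.9 CPM in QT7L1, 47.5 and 22.2 CPM in QKO and 3.26 and 13.4 CPM in WT. QT7 lay with QKO, and QT7L1 lay below QKO and overlapped WT. In bulk RNA, fewer cells in this state and less RNA per such cell cannot be told apart.

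Zscan4c and Zscan4d, and likewise Usp17la and Usp17lc, are close copies on chromosome 7, and their promoters show how alike they are. The sequences are RefSeq promoters on GRCm38.p6, from 250 bases before to 50 bases after the start, written 5′ to 3′ on the gene's strand. Capitals mark the core of the TCF/LEF binding site, CTTTGA or its reverse complement TCAAAG. Zscan4c lies at chr7:11005495-11005794 (plus), Zscan4d at chr7:11166099-11166398 (minus), Usp17la at chr7:104856766-104857065 (plus) and Usp17lc at chr7:103416446-103416745 (plus). Rpl10l, at chr12:66284352-66284651 (minus), is shown as the leading gene with the smallest p that has a promoter in the table.
Zscan4c: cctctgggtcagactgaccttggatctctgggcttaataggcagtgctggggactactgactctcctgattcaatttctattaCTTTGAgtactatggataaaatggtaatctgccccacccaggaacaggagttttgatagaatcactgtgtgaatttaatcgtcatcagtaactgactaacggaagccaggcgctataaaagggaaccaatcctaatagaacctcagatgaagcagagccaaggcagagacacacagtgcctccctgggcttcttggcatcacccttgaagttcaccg
Zscan4d: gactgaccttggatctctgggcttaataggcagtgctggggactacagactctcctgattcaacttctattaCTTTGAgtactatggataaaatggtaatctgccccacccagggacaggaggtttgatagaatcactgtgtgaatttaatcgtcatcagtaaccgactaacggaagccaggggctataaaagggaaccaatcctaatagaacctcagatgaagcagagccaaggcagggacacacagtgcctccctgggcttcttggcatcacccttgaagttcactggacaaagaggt
Usp17la: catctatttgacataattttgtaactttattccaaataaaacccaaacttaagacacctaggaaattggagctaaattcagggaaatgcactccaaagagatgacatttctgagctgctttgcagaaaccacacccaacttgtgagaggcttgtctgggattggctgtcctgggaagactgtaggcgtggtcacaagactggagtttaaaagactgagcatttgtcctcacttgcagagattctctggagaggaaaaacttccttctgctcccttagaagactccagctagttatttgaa
Usp17lc: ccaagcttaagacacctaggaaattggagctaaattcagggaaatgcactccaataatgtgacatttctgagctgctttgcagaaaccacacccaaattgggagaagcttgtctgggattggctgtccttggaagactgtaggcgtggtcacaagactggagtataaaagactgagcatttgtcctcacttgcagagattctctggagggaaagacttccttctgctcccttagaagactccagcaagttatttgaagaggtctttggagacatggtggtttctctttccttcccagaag
Rpl10l: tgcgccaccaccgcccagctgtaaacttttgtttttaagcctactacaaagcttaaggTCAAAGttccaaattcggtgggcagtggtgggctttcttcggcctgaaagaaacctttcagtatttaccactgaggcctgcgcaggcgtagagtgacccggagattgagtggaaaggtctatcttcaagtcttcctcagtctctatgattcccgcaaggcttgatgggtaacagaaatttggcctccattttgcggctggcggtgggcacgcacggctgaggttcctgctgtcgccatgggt
The Zscan4c and Zscan4d promoters aligned over 289 bases with 97.2% identity, and those of Usp17la and Usp17lc over 257 bases with 95.3% identity. The core was found once in Zscan4c, once in Zscan4d and once in Rpl10l, and not in the Usp17la or Usp17lc windows. It was present in 4372 of 27025 promoters of the table (16.2%), in 1376 of 11546 promoters of tested genes (11.9%), in 24 of 138 of genes that DESeq2 called higher in QT7 (17.4%) and in 4 of 20 of those it called lower. A match is a match of letters and does not show binding.

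The transcripts of these families are close copies too. Zscan4c and Zscan4f aligned at 99.6% identity, Zscan4c and Zscan4d at 97.5%, and pairs among Usp17la to Usp17le at 90.6 to 97.9%. Counts of single copies are uncertain where reads fit several copies, and members of a family are not independent.

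Zscan4d had 8.14 and 13.7 CPM in QT7, 1.03 and 0.67 CPM in QT7L1, 15.5 and 6.07 CPM in QKO and 0.939 and 3.63 CPM in WT. Both QT7 clones were above WT and QT7L1 and within the range of QKO. Zscan4d had a log2 fold change of 3.68 ± 0.76 (edgeR adjusted p = 0.197; DESeq2 adjusted p = 0.00321). Zscan4c (6.28 and 12.2 CPM in QT7, 1.12 and 0.974 CPM in QT7L1) and Zscan4f (5.28 and 7.2 CPM, 0.575 and 0.64 CPM) had log2 fold changes of 3.14 ± 0.83 and 3.35 ± 0.57. For the Zscan4 genes replicate 2 was the higher QT7 clone, unlike for most leading genes.

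Usp17le had 2.63 and 2.05 CPM in QT7 and 0.303 and 0.244 CPM in QT7L1, with a log2 fold change of 3.08 ± 0.46 (edgeR adjusted p = 0.111; DESeq2 adjusted p = 0.000401). Usp17lc had 2.93 and 1.61 CPM in QT7 against 0.182 and 0.0914 CPM in QT7L1. Zfp352, a zinc finger gene of the 2-cell embryo, had 44 and 22 counts in QT7 and 1 count in each QT7L1 library. Spz1, a testis transcription factor gene, had 17 and 13 counts in QT7 and 0 in QT7L1, at least 8.18-fold higher against a floor of 3 counts over both QT7L1 libraries.

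No 2-cell-like gene was called by edgeR. DESeq2 called 10 of the 15 past the filter as higher, beside 1.3% of all genes to which it gave an adjusted p. Both QT7 libraries were above both QT7L1 libraries in all 15 genes past the filter, beside 20.7% of all tested genes, and in 17 of the 19 matched genes. Of the genes below the filter, Duxf3, which belongs to the Dux array, had 8 and 14 counts in QT7 and 1 and 3 in QT7L1, Tcstv1 had 4 and 3 against 0 and 0, and Tdpoz1 and Gm6763 had 0 counts in all 4 libraries. The median log2 fold change of the 15 genes past the filter was 3.35, or 3.33 with Spz1 at its bound, and 3.53 without QT7 replicate 1. Genes this low pass the filter through the libraries in which they are high, and copies of a family are not independent. No support is therefore drawn from that median, from the DESeq2 calls or from the counts without overlap.

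**Figure D3:**
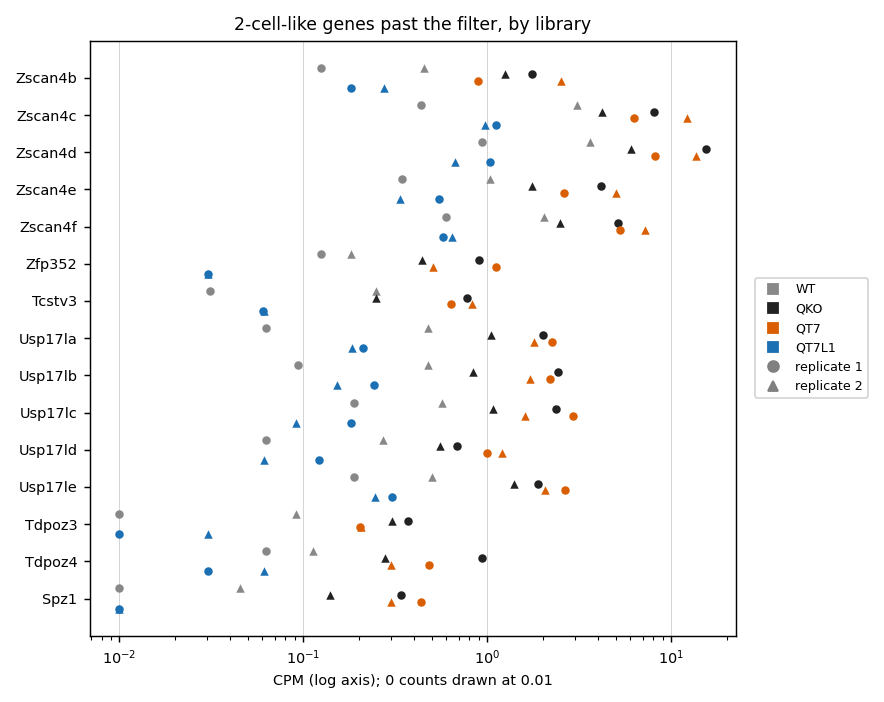
CPM on a log axis of the 15 genes of the 2-cell-like state that passed the filter, in each of the 8 libraries, coloured by group, with circles for replicate 1 and triangles for replicate 2, and 0 counts drawn at 0.01. In each of the 15 both QT7 clones (orange) lie above both QT7L1 clones (blue), and QKO (black) lies near QT7.

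Genes of the germline and of meiosis had a positive median. Of 24 listed genes 22 were tested, and none was called by edgeR. DESeq2 called 2 as higher in QT7, beside 1.3% of all genes to which it gave an adjusted p. At an unadjusted p under 0.05, 8 were higher and 1 was lower, beside 7.22% and 3.86% of all genes. The median log2 fold change was 0.5, falling to 0.2 without QT7 replicate 1. Tex19.1, which protects germ cells from transposons, had 44.1 and 43.2 CPM in QT7, 23.8 and 30.5 CPM in QT7L1, 64.2 and 61.7 CPM in QKO and 24.9 and 29.7 CPM in WT. Its log2 fold change of 0.69 ± 0.14 (edgeR adjusted p = 0.16; DESeq2 adjusted p = 0.00392) did not rest on 1 clone.

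Hormad1, a protein of the meiotic chromosome axis, had 22.3 CPM in QT7 replicate 1 and 6.3 CPM in replicate 2, against 3.79 and 3.5 CPM in QT7L1, and its log2 fold change fell from 1.97 to 0.79 without replicate 1. Dazl, an RNA-binding regulator of germ cell development, had 30.9 and 11.1 CPM in QT7 and 5.21 and 7.64 CPM in QT7L1, and its log2 fold change fell from 1.71 to 0.79 without replicate 1. Tdrd1, a Tudor protein of the piRNA pathway, went the other way, with 0.791 and 1.82 CPM in QT7 and 3.36 and 2.86 CPM in QT7L1, a log2 fold change of -1.25 ± 0.36 (edgeR adjusted p = 0.27) that was -0.77 without QT7 replicate 1 and -1.98 without QT7 replicate 2.

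Wnt target and feedback genes did not move in one direction. Of 26 listed genes 25 were tested, and none was called by edgeR or DESeq2. At an unadjusted p under 0.05, 4 were higher and 2 lower, beside 7.22% and 3.86% of all genes. Without overlap 7 were higher and 6 lower, near the 20.7% and 20.1% of all genes. Their median log2 fold change was 0.01, beside 0.001 for all genes, and single values ran from -0.58 to 2.15. The largest was that of Lgr5, at 2.15 (2.83 without QT7 replicate 1), and Sp8 had 1.85 (1.23 without that clone). For 10 of the 25 the 95% interval lay within 2-fold either way, beside 67.5% of all genes. Larger differences were thus not excluded for the other 15.

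Axin2, the scaffold of the beta-catenin destruction complex and the standard Wnt feedback target, had 19.1 and 33.9 CPM in QT7, 31.9 and 32.0 CPM in QT7L1, 45.6 and 60.3 CPM in QKO and 21.9 and 20.7 CPM in WT. The clones of QT7 lay on either side of QT7L1. The log2 fold change of -0.27 ± 0.24 (95% interval -0.81 to 0.28; edgeR adjusted p = 0.704) was 0.09 without QT7 replicate 1 and -0.74 without QT7 replicate 2. Sp5, a Sp-family transcription factor and direct Wnt target, had 1.56 and 1.13 CPM in QT7 and 0.636 and 0.67 CPM in QT7L1, a log2 fold change of 1.03 ± 0.42 (edgeR adjusted p = 0.414). Dkk1, a secreted Wnt inhibitor, had 1.86 and 0.828 CPM against 0.606 and 0.487 CPM, and its log2 fold change fell from 1.29 to 0.6 without QT7 replicate 1. Tnfrsf19 had 9.06 and 3.98 CPM in QT7 and 2.97 and 2.92 CPM in QT7L1. Its log2 fold change fell from 1.14 to 0.44 without that clone.

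Other target genes were lower in QT7 or had overlapping libraries. Fzd7, a Frizzled receptor, had 69.9 and 72.2 CPM in QT7, 90.7 and 87.0 CPM in QT7L1, 53.4 and 54.4 CPM in QKO and 93.9 and 97.0 CPM in WT. QT7L1 was close to WT and QT7 lay between QKO and QT7L1, with a log2 fold change of -0.32 ± 0.09 (edgeR adjusted p = 0.261). Bambi, a BMP pseudoreceptor, had 5.67 and 8.63 CPM in QT7 and 10.2 and 11.2 CPM in QT7L1, a log2 fold change of -0.58 that was -0.31 without QT7 replicate 1. Ccnd1, with 156 and 172 CPM in QT7 and 162 and 165 CPM in QT7L1, had a log2 fold change of 0.01 ± 0.13 and an interval of -0.29 to 0.3.

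Among Wnt ligands, receptors and secreted modulators, 35 of 41 genes were tested, none was called by edgeR and 1, Wnt5b, was called by DESeq2. Wnt5b, a ligand best known for signalling without beta-catenin, had 4.49 and 4.09 CPM in QT7, 1.36 and 1.52 CPM in QT7L1, 4.34 and 5.32 CPM in QKO and 1.28 and 0.998 CPM in WT. The levels formed 2 tiers, QT7 with QKO and QT7L1 with WT. The log2 fold change was 1.57 ± 0.27 (edgeR adjusted p = 0.111; DESeq2 adjusted p = 0.00235), and the median of the list was 0.03. Sfrp1, a secreted Wnt antagonist, had 66.4 and 70.2 CPM in QT7 and 93.9 and 80.5 CPM in QT7L1.

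Genes of the beta-catenin complex and its cofactors had narrow intervals in most cases. All 24 listed genes were tested, and the median log2 fold change was 0.00. For 20 the 95% interval lay within 2-fold, beside 67.5% of all genes. Ctnnb1, which encodes beta-catenin, had 969 and 909 CPM in QT7 and 905 and 952 CPM in QT7L1, overlapping values with an interval of -0.17 to 0.21. Bcl9l, a coactivator of beta-catenin, had 19.6 and 13.9 CPM in QT7 and 11.3 and 10.9 CPM in QT7L1, and its log2 fold change fell from 0.59 to 0.33 without QT7 replicate 1.

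Most pluripotency genes had narrow intervals. Of 20 naive pluripotency genes, 19 had a 95% interval within 2-fold either way, and all 16 general pluripotency genes did, beside 67.5% of all genes. None of these genes was called by either tool, and the median log2 fold changes were 0.08 (-0.02 without QT7 replicate 1) and 0.04. The lowest value in the naive list, -0.7 for Dppa3, was -1.53 without QT7 replicate 1. Nanog (chr6:122707489-122714633), a core factor of naive pluripotency and a known target of TCF7L1 repression, had 583 and 504 CPM in QT7, 441 and 445 CPM in QT7L1, 624 and 566 CPM in QKO and 308 and 288 CPM in WT. The groups followed the order QKO, QT7, QT7L1 and WT without overlap except between QT7 and QKO. For Nanog the log2 fold change was 0.3 ± 0.1 (95% interval 0.07 to 0.52; edgeR adjusted p = 0.33; DESeq2 adjusted p = 0.274), and 0.19 without QT7 replicate 1.

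Esrrb, another naive factor regulated by TCF7L1, had 936 and 780 CPM in QT7 and 775 and 818 CPM in QT7L1, overlapping values with an interval of -0.14 to 0.35. Its log2 fold change of 0.11 turned to -0.03 without QT7 replicate 1. Klf2, a Krüppel-like factor of the naive state, had 349 and 236 CPM in QT7 and 215 and 202 CPM in QT7L1, a log2 fold change of 0.49 ± 0.18 that fell to 0.18 without that clone. Pou5f1 had 1250 and 1550 CPM in QT7 and 1660 and 1560 CPM in QT7L1, and Sox2 had 311 and 302 CPM against 292 and 300 CPM.

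**Figure D4:**
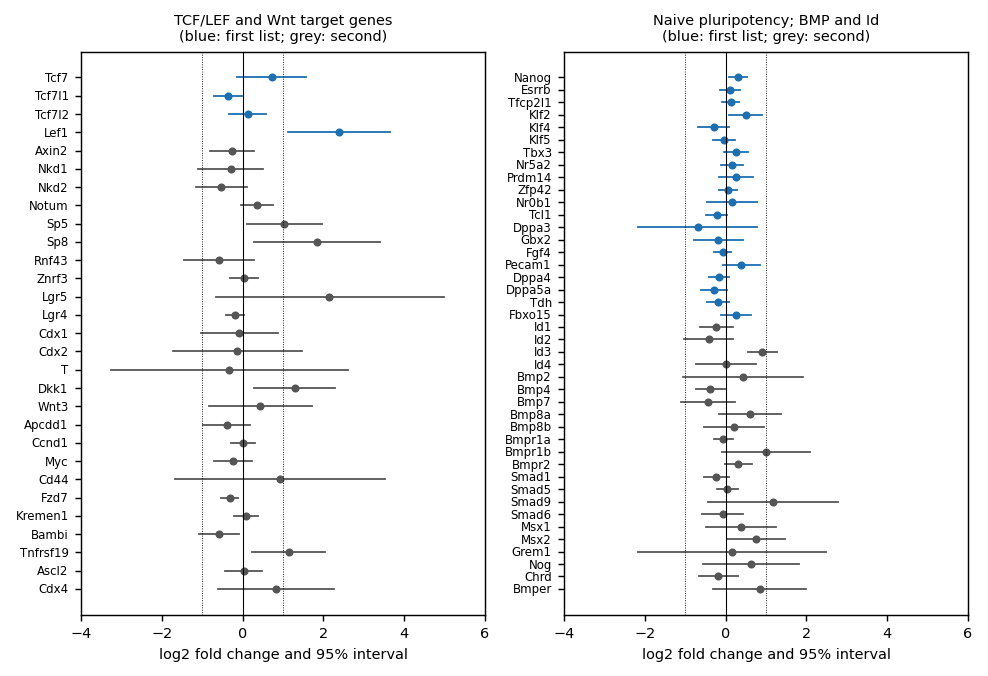
Log2 fold change of QT7 over QT7L1 with its 95% interval (horizontal axis) for tested TCF/LEF factors and Wnt target genes (left) and naive pluripotency, BMP pathway and Id genes (right), with dotted lines at 2-fold. The naive pluripotency intervals lie within 2-fold for 19 of 20 genes, whereas Lef1 lies beyond 2-fold and Id3 spans 0.55 to 1.26.

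The Nodal and BMP pathways had 1 gene called by DESeq2 between them, Id3, and none by edgeR. For Nodal, 19 of 20 genes were tested with a median of 0.04. Lefty1, a Nodal inhibitor, had 54.8 and 58.0 CPM in QT7, 43.0 and 42.2 CPM in QT7L1, 21.6 and 17.2 CPM in QKO and 108 and 145 CPM in WT, so both lines lay between QKO and WT. Its log2 fold change was 0.4 ± 0.15 (edgeR adjusted p = 0.376). For the 22 BMP pathway genes the median was 0.18, and Bmp4 had 82.3 and 123 CPM in QT7 and 132 and 136 CPM in QT7L1, a log2 fold change of -0.39 that was -0.13 without QT7 replicate 1.

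Formative and primed epiblast genes had a median of 0.01 over 21 genes, with Lef1, described above, as the single DESeq2 call and no edgeR call. Zic2, a zinc finger factor of the primed epiblast, had 17.4 CPM in QT7 replicate 1 and 1.54 CPM in replicate 2, against 1.18 and 0.7 CPM in QT7L1. Its log2 fold change of 3.33 ± 1.22 fell to 0.71 without replicate 1. Fgf15 had 7.76 and 10.4 CPM in QT7 and 14.2 and 11.5 CPM in QT7L1, a log2 fold change of -0.5 that was -0.3 without replicate 1.

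Endoderm genes lay higher in QT7 more often than lower, by less without 1 clone. Of 26 listed genes 24 were tested, and 13 were higher and 0 lower in QT7 without overlap of libraries, beside 20.7% and 20.1% of all genes. At an unadjusted p under 0.05, 3 were higher and 0 lower, beside 7.22% and 3.86%, and none was called by edgeR. The median log2 fold change was 0.62 and fell to 0.21 without QT7 replicate 1, and the 6 primitive endoderm markers summed to 53.9 and 33.8 CPM in QT7 and 33.6 and 31.5 CPM in QT7L1. Hnf4a, a nuclear receptor of visceral endoderm and liver, had 37.0 and 25.5 CPM in QT7, 12.4 and 12.5 CPM in QT7L1, 7.82 and 4.02 CPM in QKO and 7.29 and 11.1 CPM in WT. Both clones of QT7 were above every other library, and the log2 fold change was 1.33 ± 0.32 (edgeR adjusted p = 0.207; DESeq2 adjusted p = 0.00086) and 1.04 without replicate 1. Sparc, a matricellular protein, had 671 and 528 CPM in QT7 and 430 and 419 CPM in QT7L1, and its log2 fold change fell from 0.5 to 0.32 without that clone.

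Hox genes were near the detection limit, with 12 of 32 past the filter. Their median log2 fold change was 0.82 and fell to 0.12 without QT7 replicate 1. Hoxc13, the single Hox gene called by DESeq2, had 11.5 and 3.24 CPM in QT7 and 2.57 and 1.8 CPM in QT7L1, and its log2 fold change fell from 1.75 to 0.57 without that clone. Medians of the other lineage lists were 0.42 for primitive streak and mesendoderm (0.22 without replicate 1), -0.06 for mesoderm (-0.18 without replicate 1), -0.17 for neuroectoderm (-0.33 without replicate 1) and -0.27 for trophoblast (-0.02 without replicate 1). None of these lists had a gene called by either tool.

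Cell cycle and DNA replication genes tended to lower values in QT7. All 31 were tested, 18 were lower and 1 was higher without overlap, beside 20.1% and 20.7% of all genes, and at an unadjusted p under 0.05, 6 were lower and 1 was higher, beside 3.86% and 7.22%. The differences were small, with a median of -0.14 (-0.07 without QT7 replicate 1, -0.08 without QT7L1 replicate 2). For 28 genes the interval lay within 2-fold, beside 67.5% of all genes, and no gene was called by edgeR. Ccnd3, cyclin D3, had 328 and 374 CPM in QT7, 498 and 449 CPM in QT7L1, 490 and 518 CPM in QKO and 308 and 338 CPM in WT. Here QT7L1 lay near QKO and QT7 near WT, with a log2 fold change of -0.43 ± 0.1 (edgeR adjusted p = 0.19; DESeq2 adjusted p = 0.0263).

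Pcna, the replication clamp, had 268 and 318 CPM in QT7 and 418 and 364 CPM in QT7L1, and E2f1, a transcription factor of S phase entry, had 41.3 and 48.4 CPM against 62.8 and 59.8 CPM. Ccnd2, cyclin D2, was the exception, with 13.3 and 12.8 CPM in QT7 and 9.81 and 6.21 CPM in QT7L1. QT7 replicate 1 was the lower QT7 clone for Ccnd3, Pcna and E2f1.

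Metabolic lists had negative medians that depended on QT7 replicate 1. The median was -0.24 over 32 genes of glycolysis and the hypoxia response, and -0.02 without that clone. Of these genes 8 were lower and 0 higher without overlap, where 20.1% of all genes were lower and 20.7% higher. For 21 tested genes of the ATF4 amino acid stress response it was -0.29, and 0.00 without the clone. For 24 cholesterol genes it was -0.27, with 12 lower and 0 higher without overlap (20.1% and 20.7% of all genes), and -0.14 without the clone. Members of the lists include Gapdh (3650 and 3950 CPM in QT7, 4310 and 4470 CPM in QT7L1), Slc7a5, an amino acid transporter (397 and 521 CPM, 535 and 585 CPM), and Hmgcs1, an enzyme of the mevalonate pathway (148 and 237 CPM, 277 and 256 CPM). Without the clone the log2 fold change went from -0.29 to -0.1 for Slc7a5 and from -0.47 to -0.17 for Hmgcs1. For Gapdh it changed less, from -0.21 to -0.15. No gene of the 3 lists was called by edgeR or DESeq2.

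**Figure D5:**
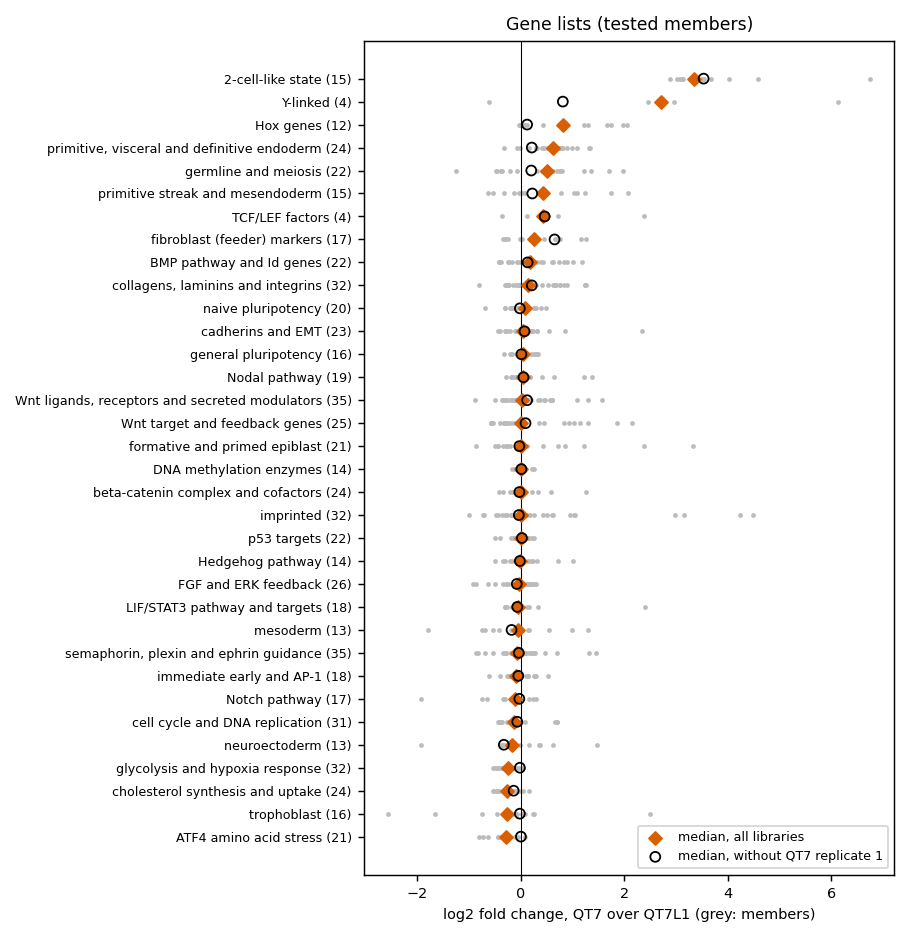
Log2 fold changes of QT7 over QT7L1 (horizontal axis) for the tested members of 34 gene lists (grey), with the median over all libraries (orange diamonds) and without QT7 replicate 1 (open circles), and the number of tested members in brackets. The Hox median goes from 0.82 to 0.12 and the endoderm median from 0.62 to 0.21 without that clone. The 2-cell-like medians, 3.35 and 3.53, come from genes that pass the filter through the libraries in which they are high, so no support is drawn from them.

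Imprinted genes included large differences that shrank without QT7 replicate 1. Of 33 listed genes 32 were tested, with a median of 0.00. At an unadjusted edgeR p under 0.05, 7 were higher and 3 lower, beside 7.22% and 3.86% of all genes, and 1 was called by DESeq2. This was Plagl1, a zinc finger gene expressed from the paternal allele, with 3.29 CPM in QT7 replicate 1 and 0.299 CPM in replicate 2, against 0.0909 and 0.0914 CPM in QT7L1. Without replicate 1 the log2 fold change of Plagl1 fell from 4.24 to 1.68. H19, a noncoding RNA expressed from the maternal allele, had 16.5 and 3.08 CPM in QT7 and 0.787 and 1.4 CPM in QT7L1, and its log2 fold change of 3.15 ± 0.88 fell to 1.49 without replicate 1.

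Y-linked genes varied between clones in every edited line. Ddx3y had 50.9 and 14.2 CPM in QT7, 7.54 and 4.23 CPM in QT7L1, 11.4 and 40.4 CPM in QKO and 49.2 and 63.2 CPM in WT. Uty had 16.6 and 1.47 CPM in QT7 and 1.91 and 0.396 CPM in QT7L1, whereas Eif2s3y had 24.2 and 10.6 CPM against 18.3 and 34.9 CPM. Without QT7 replicate 1 the log2 fold change fell from 2.46 to 1.27 for Ddx3y and from 2.96 to 0.35 for Uty, and it went from -0.61 to -1.32 for Eif2s3y. Kdm5d, called by DESeq2, had 98 and 5 counts in QT7 and 0 and 1 in QT7L1. The 4 genes thus did not share an order between the lines, and their part in the result for Gm47283 was not tested. The annotation places Gm47283 on the same chromosome, but it shares 508 aligned bases at 100% identity with Gm21887 on chromosome X. Its counts therefore need not come from chromosome Y.

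The other 11 lists had no gene called by either tool. Their medians ran from -0.12 for the Notch pathway (-0.03 without QT7 replicate 1) to 0.26 for fibroblast markers (0.65 without QT7 replicate 1), with -0.05 for LIF/STAT3 targets, -0.03 for FGF and ERK feedback, 0.00 for p53 targets, 0.01 for DNA methylation enzymes and 0.13 for collagens, laminins and integrins. For all 14 DNA methylation enzymes and 20 of 22 p53 targets the 95% interval lay within 2-fold, beside 67.5% of all genes.

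Markers of other cell types were compared in the same libraries. The 20 fibroblast (feeder) markers summed to 1440 and 1420 CPM in QT7 and 1670 and 1410 CPM in QT7L1, with Dcn and Lum at 0 in all 4 libraries. Most of each sum was Fn1 (960 and 926 CPM, 1310 and 995 CPM) and Vim (358 and 317 CPM, 267 and 274 CPM). Averaged over the 17 tested markers, log2 CPM relative to each marker's mean was -1.5 and 0.29 in QT7 and -1.17 and -0.17 in QT7L1. The clones thus differed within each line, which the sums do not show. Trophoblast markers summed to 12.6 and 13.3 CPM in QT7 and 13.2 and 12 CPM in QT7L1, mesoderm markers to 3.7 and 3.98 CPM and 3.54 and 2.65 CPM, and neural markers to 98.8 and 85.1 CPM and 85.4 and 79.8 CPM, with Neurog2 at 0.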

How the data were processed

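The submitters' processing notes name bcl2fastq (1.8.4), STAR (2.4.0f1) as the aligner, the mm10 (GRCm38) build, HTSeq for gene counting and DESeq2 (listed as 2.1.8.3). For HTSeq, the version, strand setting and annotation are not stated there, so reads of overlapping and antisense genes may be shared. The count files are raw counts per Ensembl gene as deposited (47729 identifiers, of which 47224 matched GENCODE release M21, with no HTSeq summary lines). The authors' deposited table gives log2 fold changes and p-values; it was used only for the counts credited to it.

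Counts were tested with edgeR 4.0.16 in R 4.3.3 (filterByExpr, TMM, robust quasi-likelihood F test, 2-sided), with 1 mean per group over all 8 libraries, which leaves 4 residual degrees of freedom, and Benjamini-Hochberg adjustment at 0.05. SE is the absolute log2 fold change over the square root of F, and intervals are 95%. The test was checked on simulated data. DESeq2 1.42.0 and limma 3.58.1 were alternatives, beside other scalings, filters, the 4 libraries alone, the replicate block and leaving out each library. DESeq2 gave no adjusted p to 641 genes.

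Members and gene lists were chosen with earlier results of these data known. Named genes are the TCF/LEF genes, Axin2, Nanog and Esrrb, then the genes with the smallest p among those at an average log2 CPM of at least 2 without overlap and without a predicted, RIKEN or clone name (12 in all, since the single called gene, Gm47283, has a predicted name), then members of each list with the smallest p. Gm47283, Gm21887, Rpl10, Ddx3x, Pou5f1 and other list members outside these ranks, and the genes of the closing section, were chosen after their values were seen. CPM are counts per 1000000 with TMM factors. Replicate numbers were not treated as pairs, since nothing in the labels ties clone A of one line to clone A of another. Promoters come from a RefSeq table on GRCm38.p6, and likeness of copies from alignments of the longest GENCODE transcripts.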

Additional observations from a re-analysis of the deposited data

How the results depend on the processing

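The count of called genes was 1 with edgeR as described and with RLE size factors, 3 with upper-quartile scaling, 20 with only the 4 libraries of QT7 and QT7L1 (19 higher in QT7), 236 with DESeq2 and 1030 with no filter on low counts (828 higher and 202 lower, 25911 genes tested). It was 0 with a filter of at least 1 CPM in 2 libraries, with limma-voom and with edgeR without robust dispersion, where 1467, 1701 and 1864 genes had an unadjusted p under 0.05. A replicate block over 8 libraries gave 2 calls and over 4 libraries 131. The replicate numbers are not known to pair the clones, since nothing in the labels ties them. Across genes, the deviations of same-numbered QT7 and QT7L1 clones correlated at 0.16. With 2 clones per line this single value cannot decide whether they are paired. Leaving out 1 library at a time gave 0 to 1564 calls: 17 and 14 without WT replicate 1 or 2, 3 without QT7 replicate 1, 1564 without QT7 replicate 2 (996 higher and 568 lower), and 0 without either QKO or either QT7L1 library, where edgeR gave unadjusted p under 0.05 to 933 to 1720 genes. The cause was not tested. Gm47283 was called in 10 of 18 alternatives, with adjusted p from 5.44e-12 to 0.408 and log2 fold changes from -1.12 to -0.9. Of 2289 single-gene values under alternatives, 2053 kept direction and side of the threshold, 224 newly passed it, 8 no longer did (all Gm47283), and 4 changed sign: Axin2 (0.09, range -0.74 to 0.09 on leaving out 1 library) and Esrrb (-0.03, range -0.03 to 0.23) without QT7 replicate 1, and Rhox6 (0.35, range -3.61 to 0.35) and Rhox9 (0.68, range -2.74 to 0.68) without QT7L1 replicate 1. Of the 2-cell-like genes, 14 were called with no filter, 7 with the 4 libraries alone and 10 with DESeq2. The block over 4 libraries called 13, and fits without WT replicate 1 or 2 called 3 and 2. No support is drawn from these counts, since copies of a family are not independent. With 2 clones per line, the median SE was 0.197 on the log2 scale, and a difference no larger than its SE was not resolved. Larger differences were mostly not called either. Among the 1040 genes that differed by at least 2-fold either way, edgeR as described called only Gm47283.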

Other observations

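Genes outside the lists, chosen after their values were seen among those that DESeq2 but not edgeR called, fell into several orders of the 4 groups. Some had QT7 with QKO above QT7L1 and WT. Morc1, a germline silencer of transposons, had 207 and 125 CPM in QT7, 86.5 and 81.3 CPM in QT7L1, 163 and 167 CPM in QKO and 56.8 and 45.9 CPM in WT, and its log2 fold change of 0.99 fell to 0.58 without QT7 replicate 1. Grsf1, an RNA-binding protein of mitochondrial RNA granules, had 164 and 137 CPM in QT7, 95.3 and 102 CPM in QT7L1, 174 and 216 CPM in QKO and 84.9 and 80.0 CPM in WT. Rpl39l, a testis paralogue of the ribosomal protein gene Rpl39, had 65.9 and 68.9 CPM in QT7 and 37.4 and 45.4 CPM in QT7L1, with QKO overlapping QT7L1 at 57.6 and 43.6 CPM. Gpc4, a glypican, had 36.1 and 32.6 CPM against 22.3 and 21.5 CPM. Miip, an inhibitor of cell migration, had the reverse order, with 4.41 and 4.32 CPM in QT7, 12.3 and 10.7 CPM in QT7L1, 2.3 and 4.91 CPM in QKO and 22.4 and 18.4 CPM in WT (edgeR log2 fold change -1.4 ± 0.3, adjusted p = 0.169).

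In others QT7 stood apart from all 3 other groups. Mmrn2, a multimerin of the endothelial matrix, had 121 and 67.1 CPM in QT7 and 32.6 to 40.8 CPM elsewhere, and Rec114, a factor of meiotic double-strand break formation, had 20.1 and 5.41 CPM in QT7 and 1.64 to 2.83 CPM elsewhere. Without QT7 replicate 1 the log2 fold change over QT7L1 fell from 2.81 to 1.58 for Rec114 and from 1.42 to 0.94 for Mmrn2. Pdzd4, a PDZ domain protein, had 93.9 and 98.0 CPM in QT7 against 135 and 131 CPM in QT7L1, with a log2 fold change of -0.47 ± 0.09 (edgeR adjusted p = 0.145) that was -0.44 without QT7 replicate 1. Abca1, a cholesterol efflux transporter, had 7.02 and 12.4 CPM in QT7 and 23.4 and 18.2 CPM in QT7L1, beside 22.2 and 24.4 CPM in QKO. For Mdk, the growth factor midkine, QT7L1 was instead the group apart, at 195 and 183 CPM against 133 and 141 CPM in QT7. WT had 137 and 167 CPM of Mdk and QKO 150 and 145 CPM.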
